A study of Mus musculus with 6 samples.

Results

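Insulin and IGF signalling was followed through 10 genes that were chosen by name: the ligand gene *Igf1*, the receptor genes *Insr* and *Igf1r*, the substrate genes *Irs1* and *Irs2*, the kinase genes *Pik3r1* and *Akt2*, the glucose transport genes *Tbc1d4* and *Slc2a4*, and the inhibitor gene *Grb10*. They are 10 of the 52089 symbols in the deposited table and were present in it with 118 transcript accessions, from 2 for *Irs2* to 21 for *Akt2*. All 10 symbols were found. The rule used names and no measured value, but the names were picked with earlier results of these data known. The cells were primary preadipocytes from the stromal-vascular fraction of inguinal white adipose tissue of mice whose strain the labels give as 129SvEv. They were induced for 2 days and taken to day 1 of differentiation with rosiglitazone, a PPARγ agonist that promotes browning, so that both groups were differentiating brite adipocytes, the thermogenic fat cells that arise in white fat. In the *Ctcflos* KD group, 3 libraries came from cells reverse transfected with 50 nM of an LNA gapmer, an antisense oligonucleotide that leads to cleavage of its target RNA, against the long noncoding RNA *Ctcflos*. In the control group, 3 libraries came from cells that received a nontargeting gapmer at the same dose (NC ctrl). The paper's methods give a harvest 24 h after transfection for these libraries, and culture media that contained insulin in both groups. A single gapmer was used for the KD, so that an effect of the loss of *Ctcflos* and an effect of this oligonucleotide itself cannot be told apart. The comparison asks how the transcripts of these genes differed between KD and control cells.

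Insulin and IGF1 bind related receptor tyrosine kinases, which phosphorylate IRS proteins and thereby recruit PI3 kinase, PDK1 and AKT. In adipocytes, AKT2 phosphorylates TBC1D4 (AS160), which releases GLUT4 vesicles to the plasma membrane and lets glucose in. The same pathway is required for adipocyte differentiation, and adaptor proteins such as GRB10 dampen it at the receptor.

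Values are in RPKM, that is, reads per transcript length and library depth, as the authors deposited them, and the value of a gene is the mean over its accessions. The depth recovered from the values was 60.8 to 75.5 mio mapped reads in KD libraries and 62.9 to 79.2 mio in controls. *Ctcflos* (listed as *1300015D01Rik*) had 0.0969, 0.0705 and 0.210 RPKM in KD libraries 1, 2 and 3 and 0.748, 0.751 and 0.840 RPKM in control libraries 1, 2 and 3, which left 16.1% of the control mean. KD library 3 held the most remaining *Ctcflos* and stood apart from the other KD libraries: on the first principal component of all genes tested (65.5% of the variance) it lay at -1.80, between KD libraries 1 and 2 at -31.8 and -29.3 and the controls at 20.3 to 21.9. The cells expressed general adipocyte markers: *Adipoq*, *Fabp4*, *Plin1*, *Pparg*, *Cebpa* and *Lpl*. These 6 summed to 3948 to 5304 RPKM in KD and 5602 to 6229 RPKM in control libraries. By contrast, 4 endothelial markers summed to at most 1.35 RPKM in any library. The 6 markers do not set brite apart from white adipocytes, and 5 brite markers summed to only 17.1 to 78.1 RPKM. In these bulk samples, fewer cells of a type and less RNA per cell cannot be told apart.

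Of the 10 genes, 7 were lower in *Ctcflos* KD and 0 were higher at an adjusted p under 0.05, tested with limma on log2(RPKM + 1) and adjusted over all genes by the Benjamini-Hochberg method. In the fit over the 11701 genes with a mean of at least 1 RPKM, 9 of the 10 genes were tested and 6 of them were called lower (*Slc2a4*, *Pik3r1*, *Akt2*, *Tbc1d4*, *Grb10* and *Igf1*). Over all genes of this fit, 24.0% were called in either direction, 12.4% lower and 11.5% higher. The 7th gene, *Igf1r*, lay under the limit of 1 RPKM and was taken from a fit without this limit, in which 2.76% of genes were called lower. The median log2 fold change of the 9 tested genes was -0.63, against 0.03 for all genes tested. The highest KD value was below the lowest control value in 8 of the 10 genes, which held for 21.9% of all genes tested. The exceptions were *Irs1* and *Irs2*, the substrate genes. Leaving out 1 library changed the calls over all genes as well. Against 2803, there were 1165, 1082 and 4784 without KD libraries 1, 2 and 3. Without control libraries 1, 2 and 3 there were 434, 1632 and 423. A call of a single gene lost in this way is thus not particular to that gene. The sources do not say whether the 3 libraries of a group came from separate cultures, so p-values measure the spread between libraries, which may be technical.

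**Figure D1:**
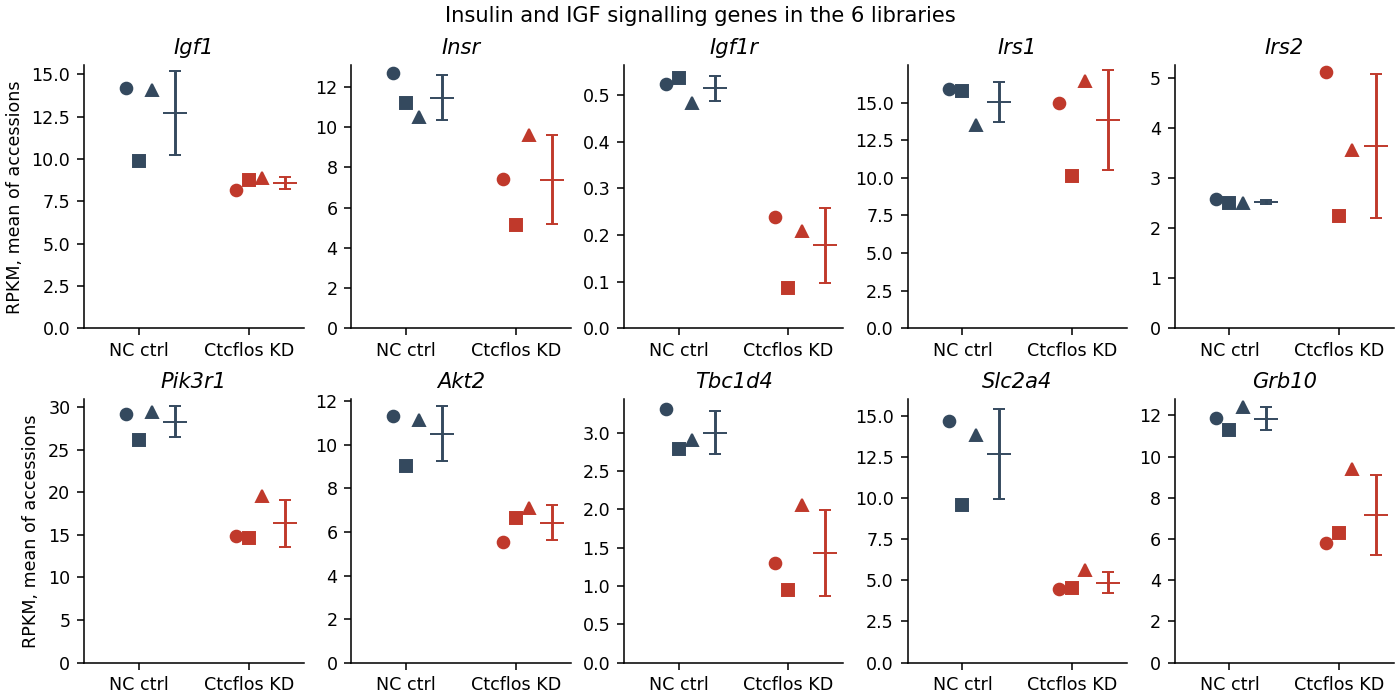
RPKM (mean over the accessions of a gene, vertical axes starting at 0) of the 10 genes in the 3 NC ctrl (dark) and 3 Ctcflos KD (red) libraries; circles, squares and triangles are libraries 1, 2 and 3, and the bar is the mean ± SD. The KD libraries lie below all controls in 8 panels, while *Irs1* and *Irs2* overlap between the groups.

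*Igf1* encodes insulin-like growth factor 1, which adipose cells secrete (chr10:87858265-87937042, GRCm38). It had 8.17, 8.73 and 8.86 RPKM in KD libraries 1, 2 and 3 and 14.2, 9.85 and 14.1 RPKM in control libraries 1, 2 and 3. The KD libraries lay close together and below all controls, with control library 2 nearest to them. *Igf1* thus fell to 67.6% of the control mean, with a log2 fold change of -0.50 (SE 0.148, limma adjusted p = 0.0437, n = 3 and 3). The limma call was lost without KD library 1 (adjusted p = 0.116), KD library 2 (0.102), control library 1 (0.159) or control library 3 (0.160), while the log2 fold change stayed between -0.66 and -0.42.

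*Insr* encodes the insulin receptor (chr8:3122061-3279617, GRCm38). It is shown with its alternatively spliced exon 11, because this exon distinguishes the receptor isoforms and was of interest to the study. The exon has 36 bases, lies at chr8:3181702-3181737 on the minus strand (GRCm38) and adds 12 codons. Read 5′ to 3′ from Gencode vM21 transcripts, with exon 11 in capitals and 24 bases of each neighbouring exon in lower case, the form with the exon and the form without it are:
Insr with exon 11: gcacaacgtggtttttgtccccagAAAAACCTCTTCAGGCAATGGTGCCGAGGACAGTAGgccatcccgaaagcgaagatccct
Insr without exon 11: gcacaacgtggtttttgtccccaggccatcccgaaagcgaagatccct
The RefSeq mRNA of *Insr* in the deposited table (NM_010568) has the form without exon 11, and the table holds 0 Ensembl transcripts of *Insr*, so that the inclusion of the exon was not analysed here. *Insr* had 7.45, 5.14 and 9.61 RPKM in KD libraries 1, 2 and 3 and 12.7, 11.2 and 10.5 RPKM in control libraries 1, 2 and 3. All KD libraries were below all controls, but KD library 3 came within 1 RPKM of control library 3. The KD mean was 64.5% of the control mean, and the log2 fold change of -0.60 (SE 0.192, 95% interval -1.04 to -0.16) missed the threshold in limma (adjusted p = 0.0546). *Insr* passed without KD library 3 (log2 fold change -0.79, limma adjusted p = 0.00656), with RefSeq accessions alone (0.0472) and with library weights (0.00922). It missed the threshold without any other library, with -0.39 (limma adjusted p = 0.121) without KD library 2 and -0.53 (0.176) without control library 1, and also without a filter on low values (0.125).

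*Igf1r* encodes the IGF1 receptor (chr7:67952827-68233668, GRCm38) and was the least abundant of the 10 genes. It had 0.239, 0.0875 and 0.208 RPKM in KD libraries 1, 2 and 3 and 0.523, 0.536 and 0.484 RPKM in control libraries 1, 2 and 3. The groups did not overlap, and the KD mean was 34.6% of the control mean. In reads, its Ensembl transcript of 11409 bases held 335, 125 and 249 reads in KD libraries 1, 2 and 3 and 742, 859 and 577 reads in control libraries 1, 2 and 3. This transcript thus had at least 125 reads in each library. The gene value is a mean over 14 accessions, and others of them held less, down to 0 RPKM in KD library 2. On the scale of log2(RPKM + 1), which compresses such low values, the log2 fold change was -0.36 (SE 0.0765, limma adjusted p = 0.0482). With a pseudocount of 0.1 in its place it was -1.19 and no longer called (limma adjusted p = 0.0521). The limma call of *Igf1r* was lost without any one of the 6 libraries, with adjusted p between 0.0505 without KD library 3 and 0.176 without control library 1. The *Igf1r* values without KD library 1, KD library 2, control library 2 and control library 3 were 0.118, 0.108, 0.122 and 0.167 (limma adjusted p). The third receptor of the list, *Igf2r*, which clears IGF2 from the cell surface, had 4.50 ± 0.704 RPKM in KD and 3.78 ± 0.147 RPKM in controls (SD, n = 3 each). The KD values of *Igf2r* were all above its control values, but it was not called (limma adjusted p = 0.235).

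*Irs1* (chr1:82233101-82291416, GRCm38) and *Irs2* (chr8:10984681-11008458, GRCm38) encode the docking proteins that the activated receptors phosphorylate. The promoters of both are shown, because they were the genes that did not follow the others, and because each held the sequence CACGTG. This is a form of the E-box, a motif bound by basic helix-loop-helix factors, and other forms were not searched for. The windows run from 250 bases before to 50 bases after the annotated start and were taken from RefSeq on GRCm38.p6, 5′ to 3′ along the gene. Capitals mark E-boxes (CACGTG) and GC boxes (GGGCGG, or CCGCCC on the other strand):
Irs1, chr1:82291390-82291689, minus strand: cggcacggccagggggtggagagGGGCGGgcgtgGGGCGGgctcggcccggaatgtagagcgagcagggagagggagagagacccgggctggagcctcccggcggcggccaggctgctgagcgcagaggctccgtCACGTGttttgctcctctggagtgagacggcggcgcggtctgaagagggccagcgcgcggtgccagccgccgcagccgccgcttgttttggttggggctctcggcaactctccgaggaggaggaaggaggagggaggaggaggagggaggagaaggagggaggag
Irs2, chr8:11008880-11009179, minus strand: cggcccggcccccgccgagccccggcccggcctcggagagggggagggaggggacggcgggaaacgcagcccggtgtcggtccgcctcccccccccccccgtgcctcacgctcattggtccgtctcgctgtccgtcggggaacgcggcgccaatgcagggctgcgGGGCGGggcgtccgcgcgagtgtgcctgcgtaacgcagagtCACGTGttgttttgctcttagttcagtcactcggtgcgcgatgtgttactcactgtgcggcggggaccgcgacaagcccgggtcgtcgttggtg
The *Irs1* window held 1 E-box and 2 GC boxes, and the *Irs2* window held 1 E-box and 1 GC box. Of 32851 RefSeq promoter windows of the same length, 7.15% held this E-box and 35.7% held this GC box on either strand. Windows were found for 8 of the 10 genes and numbered 13, with none for *Insr* or *Slc2a4*. Among these 13 windows, the form CACGTG was present in those of *Irs1* and *Irs2* and in no other. Other E-box forms were not searched for or marked, and windows of genes that fell, such as *Igf1*, hold some of them. Motifs named FOXO and DR1 were also searched for and were absent from all 13 windows. Of the 32851 windows, only 3.65% held this FOXO motif and 0.0396% this DR1 motif. Their absence from 13 windows therefore says little about these genes. The promoters shown were picked with expression values known, and a link between the E-box and the changes was not tested. A match is a description of letters and not a binding site.

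*Irs1* had 14.9, 10.1 and 16.4 RPKM in KD libraries 1, 2 and 3 and 15.9, 15.7 and 13.5 RPKM in control libraries 1, 2 and 3. KD library 3 was the highest and KD library 2 the lowest of the 6 libraries, so that the control values lay inside the KD range. The log2 fold change of *Irs1* was -0.14 (95% interval -0.55 to 0.27, limma adjusted p = 0.588), and it was 0.057 without KD library 2. *Irs2* had 5.10, 2.24 and 3.56 RPKM in KD libraries 1, 2 and 3 and 2.57, 2.51 and 2.49 RPKM in control libraries 1, 2 and 3. The controls were nearly equal, whereas the KD libraries spread from below to above them. *Irs2* was the only one of the 10 genes with a higher KD mean, at 144% of the control mean, and its log2 fold change of 0.35 (95% interval -0.12 to 0.82) was not called in limma (adjusted p = 0.238). The *Irs2* value rested on single KD libraries: the log2 fold change was 0.13 without KD library 1 (limma adjusted p = 0.595) and 0.58 without KD library 2 (0.0489).

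*Pik3r1* encodes p85α, the regulatory subunit of PI3 kinase (chr13:101680563-101768217, GRCm38). Its upstream RefSeq promoter window is shown as an example of a gene of the pathway that fell, with GC boxes in capitals, 5′ to 3′ along the gene (GRCm38.p6):
Pik3r1, chr13:101768168-101768467, minus strand: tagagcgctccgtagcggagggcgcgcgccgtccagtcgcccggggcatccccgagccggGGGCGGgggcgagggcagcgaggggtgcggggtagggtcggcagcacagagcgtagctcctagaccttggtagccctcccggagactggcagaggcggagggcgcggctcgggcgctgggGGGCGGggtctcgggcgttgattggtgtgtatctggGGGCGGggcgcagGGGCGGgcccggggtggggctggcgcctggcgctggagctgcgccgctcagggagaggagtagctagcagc
This window held 4 GC boxes and 0 E-boxes of the form CACGTG. *Pik3r1* had 14.9, 14.6 and 19.5 RPKM in KD libraries 1, 2 and 3 and 29.2, 26.2 and 29.4 RPKM in control libraries 1, 2 and 3. Every KD library was well below every control, with KD library 3 the highest of the KD group. *Pik3r1* fell to 57.8% of the control mean (log2 fold change -0.76, SE 0.139, limma adjusted p = 0.0108, n = 3 and 3). The limma adjusted p was 0.0578 without control library 1 and 0.0596 without control library 3.

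*Akt2* encodes the AKT kinase that carries the insulin signal to glucose transport in adipocytes (chr7:27591552-27640826, GRCm38). It had 5.54, 6.64 and 7.11 RPKM in KD libraries 1, 2 and 3 and 11.3, 9.05 and 11.2 RPKM in control libraries 1, 2 and 3. The groups did not overlap, and *Akt2* fell to 61.1% of the control mean (log2 fold change -0.63, SE 0.130, limma adjusted p = 0.0154, n = 3 and 3). As for *Pik3r1*, the limma call was lost without control library 1 (adjusted p = 0.0736) or control library 3 (0.0741). The log2 fold change of *Akt2* was then -0.58 and -0.59, and most calls over all genes were lost as well. *Akt1*, the AKT gene linked to growth and differentiation, had 6.21, 6.44 and 4.96 RPKM in KD and 4.35, 4.43 and 4.65 RPKM in control libraries 1, 2 and 3. Its KD values were all above its control values, and the log2 fold change of 0.32 was not called (limma adjusted p = 0.0719).

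*Tbc1d4* encodes the Rab GTPase-activating protein AS160, the AKT substrate that holds GLUT4 vesicles back (chr14:101442360-101609191, GRCm38). It had 1.30, 0.948 and 2.05 RPKM in KD libraries 1, 2 and 3 and 3.31, 2.79 and 2.90 RPKM in control libraries 1, 2 and 3. All KD libraries were below all controls, and *Tbc1d4* fell to 47.7% of the control mean (log2 fold change -0.74, SE 0.161, limma adjusted p = 0.0175, n = 3 and 3). The limma call was lost without KD library 1 (adjusted p = 0.0550), KD library 2 (0.0515), control library 1 (0.0788) or control library 3 (0.0686).

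*Slc2a4* encodes GLUT4, the insulin-responsive glucose transporter (chr11:69942539-69948188, GRCm38), and had the largest of the 10 log2 fold changes on the log2(RPKM + 1) scale, whereas by the ratio of means *Igf1r* was lower still, at 34.6% of control against 38.3%. It had 4.48, 4.51 and 5.62 RPKM in KD libraries 1, 2 and 3 and 14.7, 9.60 and 13.8 RPKM in control libraries 1, 2 and 3. The lowest control library was far above the highest KD library. *Slc2a4* fell to 38.3% of the control mean (log2 fold change -1.21, SE 0.166, 95% interval -1.59 to -0.83, limma adjusted p = 0.00558, n = 3 and 3). It was the one gene of the 10 that stayed called without each single library, with limma adjusted p between 0.00141 and 0.0377. Its Ensembl transcript of 2524 bases held 1344, 1320 and 1377 reads in KD libraries 1, 2 and 3 and 4598, 3022 and 3504 reads in control libraries 1, 2 and 3.

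*Grb10* encodes an imprinted adaptor protein that binds the insulin and IGF1 receptors and inhibits them (chr11:11930508-12038683, GRCm38). It had 5.81, 6.29 and 9.38 RPKM in KD libraries 1, 2 and 3 and 11.9, 11.3 and 12.4 RPKM in control libraries 1, 2 and 3. KD library 3 lay between the other KD libraries and the controls, and the groups did not overlap. *Grb10* fell to 60.5% of the control mean (log2 fold change -0.68, SE 0.163, limma adjusted p = 0.0230, n = 3 and 3), so that a gene for an inhibitor of the pathway fell along with genes for its activating components. The limma call held without KD library 3 (adjusted p = 0.000876) and was lost without KD library 1 (0.0710), KD library 2 (0.0789), control library 1 (0.0871), control library 2 (0.0556) or control library 3 (0.0922). The related gene *Grb14* was hardly detected, with 0.121 ± 0.0377 RPKM in KD and 0.0891 ± 0.0471 RPKM in controls (SD, n = 3 each).

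**Figure D2:**
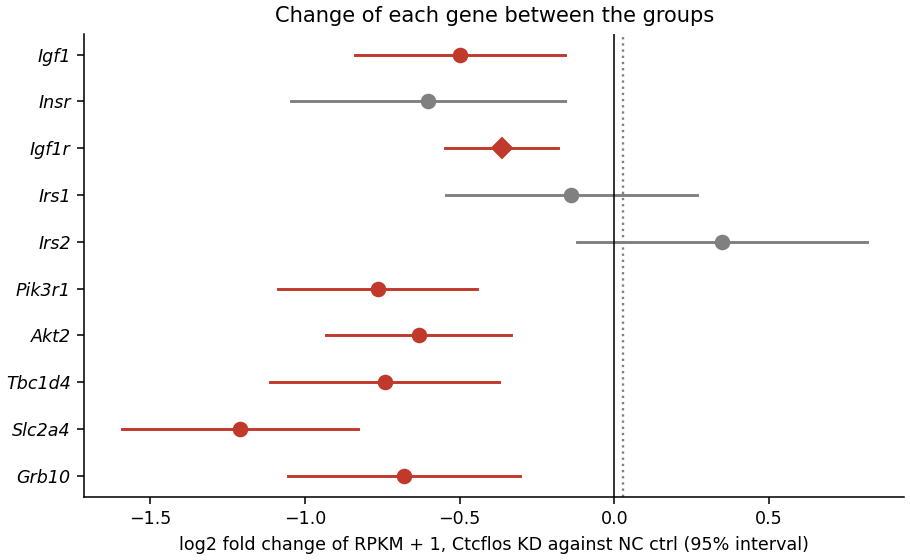
Log2 fold change of RPKM + 1 (Ctcflos KD against NC ctrl, horizontal axis) of each gene with its 95% interval from limma; red marks an adjusted p under 0.05, grey a value that was not called, the diamond is *Igf1r* from the fit without a limit on low values, and the dotted line is the median of all genes tested at 0.03. Of the 10 genes, 7 are red and on the left of 0, with *Slc2a4* farthest from 0 on this scale at -1.21.

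Within the KD group the libraries followed an order across genes. KD library 3 had the highest KD value in 8 of the 10 genes, the exceptions being *Igf1r* and *Irs2*, where KD library 1 was highest. The lowest KD value was in KD library 2 for 6 genes and in KD library 1 for 4 genes. Among controls, the lowest value was in library 2 for 6 genes and in library 3 for 4 genes. KD library 3 and control library 2 also shared higher sums of some other markers: the 4 leukocyte markers with a row (*Ptprc*, *Csf1r*, *Cd68* and *Lyz2*) summed to 16.1 and 27.3 RPKM there and to 6.61 to 8.35 RPKM in the other 4 libraries. *Lyz2* made up 12.8 and 24.5 RPKM of these sums, and *Ptprc* was at most 0.0486 RPKM in any library. The macrophage marker *Cd68* went another way, with 4.12, 3.44 and 2.16 RPKM in KD libraries 1, 2 and 3 and 0.657, 1.92 and 0.664 RPKM in control libraries 1, 2 and 3, and was called higher in KD (limma adjusted p = 0.0230). *Csf1r*, at 1.10 to 1.48 RPKM in KD and 0.269 to 0.833 RPKM in control libraries, was not called. The 4 smooth muscle and pericyte markers, of which *Acta2* made up nearly the whole sum, came to 49.8 and 86.5 RPKM there and to 17.7 to 39.8 RPKM elsewhere, and the 5 brite markers to 17.1 and 33.6 RPKM, against 29.1 and 30.4 RPKM in KD libraries 1 and 2 and 65.0 and 78.1 RPKM in control libraries 3 and 1. No marker of these lists was at 0 in all libraries. Of the 3 mesothelial markers, *Krt19* had 27.7 and 30.1 RPKM in KD libraries 1 and 2 and 6.44 to 9.56 RPKM in the other 4 libraries, while *Msln* and *Upk3b* were at most 0.0379 RPKM in any library. The 5 progenitor markers summed to 167 to 390 RPKM in KD and 264 to 439 RPKM in control libraries. The part of these cell markers in the changes of insulin and IGF signalling genes was not tested. Without KD library 3, the log2 fold changes of *Insr*, *Grb10* and *Tbc1d4* were -0.79, -0.87 and -0.92.

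Accessions of a gene share reads and are not independent, so that like changes among them do not show that the whole gene carried a change. Of the 118 accessions of the 10 genes, 100 had a mean of at least 1 RPKM, and 85 of these were called lower in limma over all accessions, with 0 called higher. Over all 67403 accessions tested, 14.7% were called lower. All 9 accessions of *Slc2a4*, all 8 of *Pik3r1*, all 21 of *Akt2* and all 15 tested accessions of *Tbc1d4* were called. For *Grb10*, *Igf1* and *Insr* it was 14 of 15, 13 of 17 and 5 of 7, and for *Irs1* and *Irs2* 0 of 6 and 0 of 2. The number of called accessions of the 10 genes dropped to 50 without KD library 1 or KD library 2 and to 24 without control library 1 or control library 3. Without KD library 2, 48 of the 50 were lower. Calls over all accessions dropped as well, from 17494 to 9402 without KD library 1 and 7865 without KD library 2. They dropped to 5774 without control library 1 and 5473 without control library 3. Within a gene the accessions changed by like amounts: those of *Slc2a4* were at 37.8 to 42.3% of the control mean, those of *Pik3r1* at 56.1 to 61.3%, those of *Insr* at 61.7 to 68.3% and those of *Irs1* at 89.8 to 92.9%. The spread was wider in other genes. The 17 accessions of *Grb10* ranged from 35.7 to 74.8%, those of *Tbc1d4* from 34.5 to 67.7% and the 14 of *Igf1r*, none of which reached a mean of 1 RPKM, from 14.4 to 54.2%. The RefSeq mRNA of *Insr* (NM_010568) had 6.26, 4.20 and 7.99 RPKM in KD libraries 1, 2 and 3 and 10.4, 9.25 and 8.83 RPKM in control libraries 1, 2 and 3, and unlike the mean over all accessions it was called in the fit over accessions (log2 fold change -0.59, limma adjusted p = 0.0494).

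**Figure D3:**
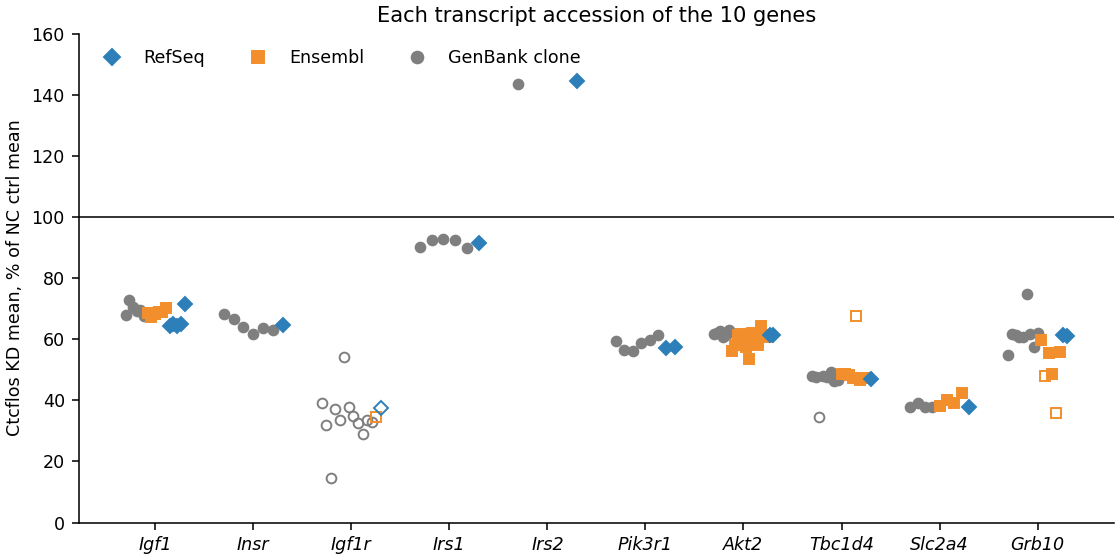
KD mean as a percentage of the control mean (vertical axis) for each of the 118 accessions, grouped by gene on the horizontal axis and marked by database; open symbols have a mean under 1 RPKM and the line is 100%. The accessions of *Slc2a4* lie at 37.8 to 42.3% and those of *Irs2* at 144 to 145%, whereas those of *Grb10*, *Tbc1d4* and *Igf1r* spread widely.

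The relative use of accessions within a gene was tested in addition, since the study concerns splicing. By limma diffSplice, usage was called in 0 of the 9 genes of the pathway with at least 2 accessions of sufficient level, with unadjusted p of 0.89 to 0.99. The smallest unadjusted p among them over all settings was 0.0910, with usage centred in each library, and it was 0.0940 without KD library 3. Over all 10027 genes tested, 0.758% were called, and 359 genes had an unadjusted p under 0.05. The share of any one accession within *Insr* shifted by at most 0.901 percentage points between the groups, within *Tbc1d4* by at most 0.827 and within *Akt2* by at most 0.240. The largest shift was in *Igf1r*, at 2.63 percentage points on few reads and without a test. Accessions of a gene share reads, and the spread of the whole gene between libraries enters the diffSplice test. The 0 calls among the 9 genes thus do not show that usage was unchanged. The shares of overlapping accessions do not measure the inclusion of a single exon such as exon 11 of *Insr*. For this exon, the paper's own splicing analysis proposes less inclusion in KD cells. By RT-PCR, the paper also reports a lower ratio of the form with the exon to the form without it. That result is for a later time than the 24 h of these libraries.

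The balance between related genes was compared as the log2 ratio of their RPKM within each library, which does not depend on the scaling of the library. For the 5 ratios, exact two-sided permutation tests of 3 against 3 libraries cannot go below p = 0.1. *Akt2* over *Akt1* was -0.17, 0.04 and 0.52 in KD libraries 1, 2 and 3 and 1.38, 1.03 and 1.26 in control libraries 1, 2 and 3. The groups did not overlap (exact permutation p = 0.1, adjusted over the 5 ratios 0.125), and the mean ratio went from 2.34 in controls to 1.10 in KD. The difference between groups was -1.11 with the highest accession of each gene and -1.12 with RefSeq accessions, but the ratio itself depended on this choice, with 0.32, 0.53 and 1.00 by the first and -0.46, -0.28 and 0.16 by the second in KD libraries 1, 2 and 3. *Tbc1d4* over its relative *Tbc1d1*, which is the more abundant form in muscle, was -1.27, -1.61 and -0.24 in KD libraries 1, 2 and 3 and 0.53, 0.10 and 0.12 in control libraries 1, 2 and 3. The groups did not overlap (exact permutation p = 0.1, adjusted 0.125). Which gene of the pair was higher depended on the accessions used: with the highest accession of each gene the ratio was 0.25, -0.22 and -0.06 in control libraries 1, 2 and 3. By the mean over accessions, *Tbc1d1* itself had 2.82 ± 0.358 RPKM in KD and 2.52 ± 0.198 RPKM in controls (SD, n = 3 each). *Irs1* over *Irs2* was 1.55, 2.17 and 2.20 in KD libraries 1, 2 and 3 and 2.63, 2.65 and 2.44 in control libraries 1, 2 and 3. This ratio did not overlap between groups (exact permutation p = 0.1, adjusted 0.125) although neither gene was called alone. *Slc2a4* over *Slc2a1*, the gene of the basal glucose transporter GLUT1, was -1.84, -1.69 and 0.22 in KD libraries 1, 2 and 3 and 0.08, 0.50 and -0.07 in control libraries 1, 2 and 3. KD library 3 lay among the controls (exact permutation p = 0.3, adjusted 0.3), and *Slc2a1* was itself lowest there, with 16.1, 14.5 and 4.81 RPKM in KD libraries and 14.0, 6.77 and 14.5 RPKM in control libraries 1, 2 and 3. *Insr* over *Igf1r* was 4.96, 5.88 and 5.53 in KD libraries 1, 2 and 3 and 4.60, 4.39 and 4.44 in control libraries 1, 2 and 3 (exact permutation p = 0.1, adjusted 0.125). With a pseudocount of 1 added to both genes this last difference changed its sign, from 0.98 to -0.24, since *Igf1r* lies below 1 RPKM.

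**Figure D4:**
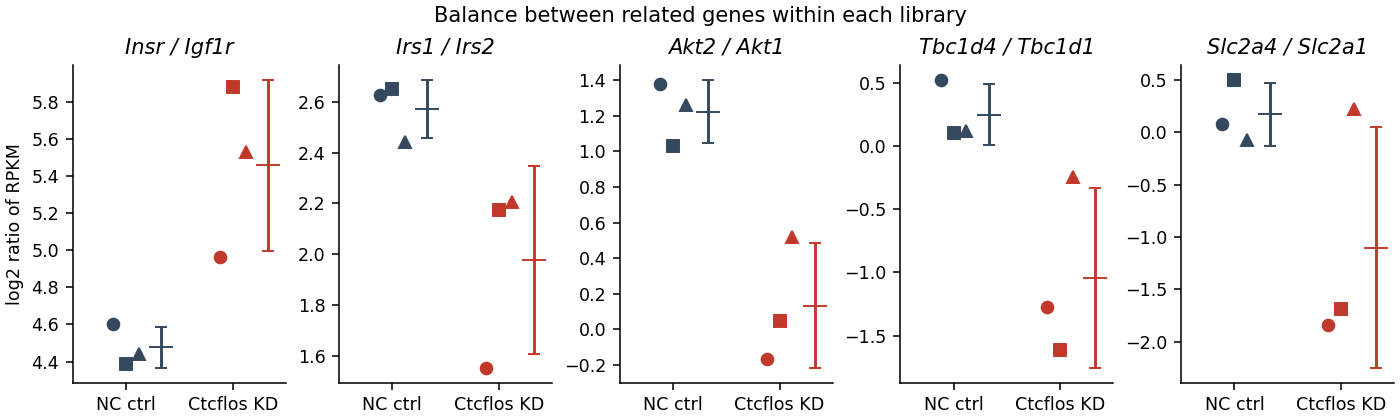
Log2 ratio of RPKM of related genes within each library (vertical axes, each with its own range and not starting at 0) for NC ctrl (dark) and Ctcflos KD (red); circles, squares and triangles are libraries 1, 2 and 3, and the bar is the mean ± SD. Groups do not overlap except for *Slc2a4* over *Slc2a1*, where KD library 3 at 0.22 lies among the controls.

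Levels can be compared between genes because RPKM is per length, and they are given for RefSeq accessions alone, since fragments among the accessions lower the mean of some genes. In controls *Pik3r1* was highest with 28.0 ± 2.05 RPKM (SD, n = 3 here and below). *Slc2a4* with 18.4 ± 4.09, *Akt2* with 17.8 ± 2.31 and *Grb10* with 17.3 ± 0.736 RPKM followed, and their ranges overlapped. *Irs1* with 14.6 ± 1.28 and *Igf1* with 14.3 ± 3.04 RPKM also overlapped, and *Insr* was lower with 9.50 ± 0.832 RPKM. The ranges of *Irs1* (13.1 to 15.6 RPKM) and *Igf1* (10.9 to 16.5 RPKM) reached into those of *Slc2a4* (from 13.7 RPKM) and *Akt2* (from 15.2 RPKM). *Tbc1d4* with 3.85 ± 0.396, *Irs2* with 2.47 ± 0.0467 and *Igf1r* with 0.676 ± 0.0674 RPKM did not overlap with their neighbours. In KD on the same scale, *Slc2a4* was at 6.95 ± 1.05 RPKM, below *Irs1* at 13.4 ± 3.23 and *Akt2* at 10.9 ± 1.60 RPKM, and *Irs2* at 3.57 ± 1.42 was above *Tbc1d4* at 1.81 ± 0.707 RPKM in the mean.

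Around these genes, 8 lists of the pathway were counted, whose genes were chosen by role. Of their 103 genes, 82 were tested and 23 were called in limma, 20 lower and 3 higher. Without the 10 genes themselves, 17 of 73 were called, or 23.3%, which is near the 24.0% of all genes tested. Of the 73, 19.2% were lower and 4.11% higher, against 12.4% and 11.5% of all genes tested. Their median log2 fold change was -0.09. The counts of each list below include those of the 10 genes that were tested. The number called over the lists was 7 without KD library 1, 10 without KD library 2, 35 without KD library 3 and 4 without control library 1 or control library 3.

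Of 8 tested ligand and IGF-binding protein genes, 4 fell (3 of 7 without *Igf1*) and 0 rose, with a median log2 fold change of -0.38. Besides *Igf1*, these were genes of secreted binding proteins: *Igfbp5* fell from 10.5 ± 4.25 to 3.03 ± 1.15 RPKM (SD, n = 3 each, limma adjusted p = 0.0157), and *Igfbp3* and *Igfbp7* had log2 fold changes of -0.59 and -0.53. *Igf2* was near the limit of detection in both groups, with 0.103 ± 0.0477 and 0.123 ± 0.0296 RPKM, and *Ins1*, *Ins2* and *Igfbp1* were listed at 0 in all libraries. Of 10 tested substrate and adaptor genes, 1 rose and 1 fell. These were *Grb2*, which couples receptors to the RAS pathway (log2 fold change 0.56, limma adjusted p = 0.0489), and *Sos2*, a RAS exchange factor that GRB2 recruits (-0.44, limma adjusted p = 0.0246). The median of this list was -0.16. Both receptors tested, *Insr* and *Igf2r*, were not called, and their median was -0.20.

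Of 8 tested genes for PI3 kinase, PDK1 and AKT, 4 fell (2 of 6 without *Pik3r1* and *Akt2*) and 0 rose (median -0.30). Among them were *Pik3r1*, *Akt2* and *Pdpk1*, the gene of the kinase that activates AKT (log2 fold change -0.41, limma adjusted p = 0.0357). *Pik3ca*, the gene of the catalytic subunit p110α, had 4.43 ± 0.224 RPKM in KD and 4.26 ± 0.0886 RPKM in controls (SD, n = 3 each). *Pik3cb*, the gene of another catalytic subunit, lay under the limit of 1 RPKM and is not among the tested genes. It had 0.534 ± 0.132 RPKM in KD and 1.26 ± 0.0954 RPKM in controls, or 42.3% of the control mean. Of 14 tested genes around mTOR, 4 fell and 0 rose (median -0.14). *Mapkap1*, which encodes a subunit of mTORC2, the complex that phosphorylates AKT, had 1.55, 1.23 and 2.16 RPKM in KD libraries 1, 2 and 3 and 4.65, 4.09 and 4.80 RPKM in control libraries 1, 2 and 3 (log2 fold change -1.07, limma adjusted p = 0.00457). *Deptor*, an inhibitor of mTOR, had a log2 fold change of -0.81, *Mtor* itself of -0.45 and *Tsc1*, which restrains mTORC1, of -0.37.

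Of 12 tested negative regulators, *Grb10* fell and *Socs6*, a suppressor of cytokine and insulin signalling, rose by 0.43 on the log2 scale (limma adjusted p = 0.0293), and the median was -0.05. Of 16 tested genes of GLUT4 traffic, 4 fell (2 of 14 without *Slc2a4* and *Tbc1d4*) and 0 rose (median -0.06). Among them were *Slc2a4*, *Tbc1d4* and *Aspscr1*, which encodes the GLUT4 tether TUG (log2 fold change -0.43, limma adjusted p = 0.0210). Of 14 tested FOXO factors and genes known as FOXO targets, 1 rose and 2 fell (median -0.09): *Gadd45a*, a stress response gene, rose by 0.61, whereas *Klf15*, a transcription factor of fasting metabolism, and *Foxo4* had log2 fold changes of -0.51 and -0.42. *Insr* and *Irs2* are also members of this list and were not called.

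**Figure D5:**
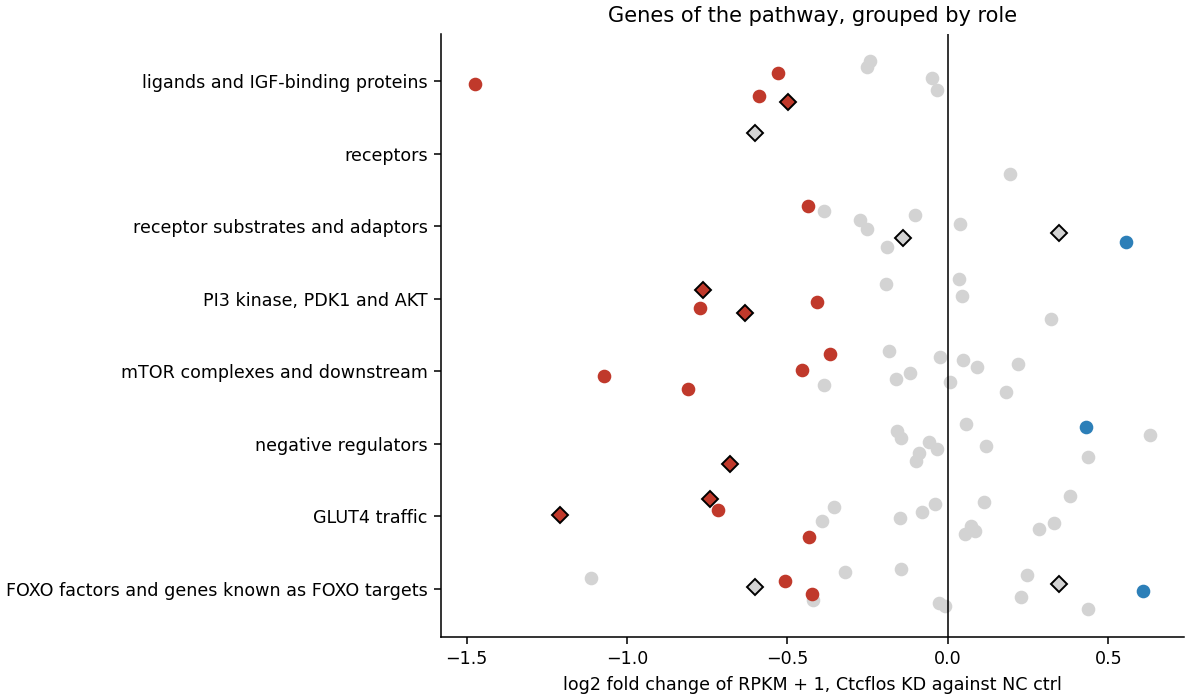
Log2 fold change of RPKM + 1 (Ctcflos KD against NC ctrl, horizontal axis) of the tested genes of 8 pathway lists (rows, where vertical position within a row has no meaning); red and blue mark genes called lower and higher by limma, grey genes not called, and black-rimmed diamonds those of the 10 chosen genes that were tested. Called genes lie mostly on the left, 20 lower against 3 higher, and *Igfbp5* is farthest from 0 at -1.47.

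Genomic span was set beside the changes for the 9427 tested genes with a known span, and 4 of the 10 genes span at least 100 kb. Of 922 tested genes that span at least 100 kb, 45.0% were called lower and the median log2 fold change was -0.34, against 10.2% and 0.05 in 8505 genes under 100 kb. *Igf1r* spans 280.8 kb, *Tbc1d4* 166.8 kb, *Insr* 157.6 kb and *Grb10* 108.2 kb. *Slc2a4*, which fell to 38.3% of control, spans 5.65 kb, *Akt2* 49.3 kb, *Igf1* 78.8 kb and *Pik3r1* 87.7 kb, while *Irs1* and *Irs2* span 58.3 and 23.8 kb. The part of gene span in the changes was not tested.

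Over the 6 libraries, the genes most like *Slc2a4* in log2(RPKM + 1) were *Wdfy2* and *1500011K16Rik* (both Pearson r = 0.998) and *Gbe1* (r = 0.998), and those most like *Insr* were *Acvr2a* and *Ube3b* (both r = 0.997) and *Ccnh* (r = 0.996). These correlations are descriptions over 6 libraries in 2 groups, chosen as the highest among all tested genes, and part of each is the difference between the groups.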

How the data were processed

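Total RNA libraries (TruSeq Stranded Total RNA kit) of 3 *Ctcflos* KD and 3 NC ctrl samples were sequenced in 150 bp paired-end reads in the study. The authors deposited a table of RPKM values with 168326 lines for RefSeq, Ensembl and GenBank accessions, written with decimal commas and without pooling of replicates. For splicing, the methods name STAR on GRCm38 with Gencode vM21. How the RPKM table was counted, and whether strand was used, is not given in the sources used here, so that reads of overlapping or antisense genes cannot be told apart. Removal of 305 exact repeats left 168021 lines.

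RPKM is no count, and count tests were not run. The gene value was the mean RPKM over accessions. Differences were tested with limma-trend on log2(RPKM + 1) for genes, or accessions, with a mean of at least 1 RPKM. Fold changes on this scale understate the change of low genes. Usage was tested with limma diffSplice at a pseudocount of 0.1. P-values were two-sided and adjusted over everything tested by the Benjamini-Hochberg method. Ratios of related genes were compared by exact permutation tests. The depth was recovered from Ensembl transcripts with Gencode vM21 lengths, where 93.8 to 94.1% of low values (up to 20 reads) were whole reads within 0.05, and was 60.8 to 79.2 mio reads. Spans were found for 80.6% of genes tested. The gene fit and the usage tests were tried on simulated data with independent noise for each gene or accession. Real accessions share reads, so that the simulation does not show how the usage test performs here. Python 3.11.15, pandas 2.3.3, numpy 2.4.6, scipy 1.17.1, matplotlib 3.10.9, R 4.3.3, limma 3.58.1 and data.table (version 1.17.8) were used.

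The 10 genes, the lists and the tests were chosen with earlier results of these data known. The text names these 10 genes, *Ctcflos*, *Akt1*, *Tbc1d1*, *Slc2a1*, *Igf2* and *Grb14*, from each list up to 4 called genes with the largest change and no overlap between groups, and the 3 genes most like *Insr* and *Slc2a4*. *Igf2r*, *Pik3ca*, *Pik3cb*, *Ins1*, *Ins2*, *Igfbp1* and single cell markers were named in addition, after their values were seen. *Stxbp3* and *Adgre1* had no row. A few genes that this rule would name are not reported here and are included in counts only. The promoters shown were also picked with values known. The alternatives tried were another pseudocount (0.1), the fit without a filter, median-of-ratios scaling, the replicate number as a block, RefSeq accessions only, the highest accession, limma library weights, an adjusted p under 0.01, accessions with at least 5% of a gene, centred usage, and each library left out in turn. A pseudocount of 1 for ratios and the lists without the 10 genes were added after seeing the data.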

Additional observations from a re-analysis of the deposited data

How the results depend on the processing

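The direction of 9 of the 10 genes was the same under every alternative, while the log2 fold change of *Irs1* was -0.14 and ranged from -0.27 to 0.057 without 1 library, the latter without KD library 2. *Slc2a4* was called by limma in all of them at an adjusted p under 0.05. Of the 10 genes, 4 were called with no filter on low values and 1 at an adjusted p under 0.01, against 7. Leaving out 1 library gave 1 to 7 called genes. Over all genes, 1807 were called with no filter, 1671 with the replicate block, 4607 with library weights and 523 at an adjusted p under 0.01, against 2803, and 423 to 4784 without 1 library. Over the pathway lists, 11, 14, 38 and 4 were called under these 4 settings, against 23, and 4 to 35 without 1 library. Of calls over all genes, 48.1% were higher, and 32.9% at an adjusted p under 0.01. Without 1 library, 5473 to 28251 accessions were called, against 17494, and 24 to 88 accessions of the 10 genes, against 85. Usage was called in 23 genes when accessions had at least 5% of the gene, in 0 when centred in each library (785 genes at an unadjusted p under 0.05), and in 30 to 206 without 1 library, against 76, and in 0 of the 9 genes of the pathway each time. The ratio of *Insr* to *Igf1r* turned to -0.24 with a pseudocount of 1. The cause of these shifts was not tested, apart from fewer libraries or another threshold.

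With the replicate number as a block, 5 of the 10 genes, 69 of their accessions, 12665 accessions in all and 55 usage genes were called. *Igf1* and *Igf1r* lost their call (limma adjusted p = 0.0770 and 0.145). Deviations of same-numbered KD and control libraries correlated at 0.29, -0.29 and -0.42 over genes. KD libraries 2 and 3 correlated best with control libraries 3 and 2, at 0.50 and 0.42. Depth was lowest in KD library 3 and control library 3, with 60.8 and 62.9 mio reads. The sources give no pairing, and whether libraries were paired under these or other numbers was not tested.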
